A study of Danio rerio with 6 samples.

Results

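The genes described here are 9 zebrafish genes from families with members at the axonal node of Ranvier and its borders. They are nfasca (neurofascin), cntn1a, cntn1b and cntn2 (contactins), cntnap1, cntnap2a and cntnap5b (contactin-associated, or Caspr, genes), and scn1lab and scn8aa (sodium channels). They were named by gene family with earlier results of these data known, in which cntnap5b was already among the larger differences upwards, and are 9 of the 19260 genes that the array measured with a transcript cluster of a single gene symbol. A transcript cluster is the set of probes that reads a single transcript or gene. The 9 genes had 10 transcript clusters, and for cntn1a, which had a pair of them, the brighter cluster stood for the gene. In RefSeq, the Entrez gene of all 9 carried the same symbol as on the array.

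All larvae carried the transgene Tg (mbp:nfsB-egfp), in which the mbp promoter drives a bacterial nitroreductase (nfsB) and GFP in myelin-forming cells. Nitroreductase turns metronidazole into a toxic product, so that the drug is used to remove the cells that make it. Control larvae were kept in E3 medium with 0.2% DMSO, and treated larvae in 5 mM metronidazole with 0.2% DMSO in E3 medium for 5 days, from 5 dpf (days post fertilization). RNA was taken from whole larvae at 10 dpf, with 5 larvae pooled for each array and 3 arrays in each group. The design has no metronidazole-treated larvae without the transgene, so that an effect of the drug itself and an effect of losing the targeted cells cannot be told apart.

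A myelinated axon is bare at the node, where sodium channels gather on a scaffold of ankyrin and spectrin and renew the action potential. On either side, at the paranode, loops of the glial cell are fastened to the axon by contactin 1 and Caspr on the axon and neurofascin on the glial loop. Beyond it, at the juxtaparanode, contactin 2 and Caspr2 hold potassium channels beneath the myelin. These roles were worked out largely in rodents. The question put to the data is whether the transcripts of these axonal partners differed after 5 days of exposure meant to strip the axons of myelin.

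All 9 genes had a higher mean log2 signal in metronidazole-treated than in control larvae, by 0.03 to 0.67 on the log2 scale, with a median of 0.29. Among all 19260 genes the difference was above 0 in 53.5%, with a median of 0.02, and among the 9630 genes above the median signal in 58.6%, with a median of 0.05. For 5 of the 9, which were cntnap5b, cntnap1, cntnap2a, scn8aa and cntn2, each metronidazole array lay above each control array. The groups did not overlap in this direction for 5.14% of all genes, and for 5.55% of genes above the median signal. For 0 of the 9 genes did each metronidazole array lie below each control array (5.73% of all genes). The 9 genes were read on the same 6 arrays and are not 9 independent observations. Duplicates outside the 9, named after their values were seen, had log2 differences of -0.05 (scn1laa), 0.06 (scn8ab), -0.03 (nfascb) and 0.04 (cntnap2b). Their standard errors were 0.22, 0.14, 0.14 and 0.16, so that no direction was resolved for them. Other relatives lay higher, such as cntn5 with 0.37 and cntnap5l with 0.34.

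None of the 9 differences passed limma's test after Benjamini-Hochberg adjustment across the 75212 transcript clusters (adjusted p = 0.952 for 8 genes and 0.991 for cntn1a), and neither did any other transcript cluster (0%). At an unadjusted p under 0.05 the only gene among the 9 was cntnap5b, where 1.68% of all genes were higher and 4.27% lower at that level. By the methods' t-test 2 of the 9 were higher at an unadjusted p under 0.05, cntnap5b and scn8aa, against 2.25% of all genes, and 0 passed the adjustment. In simulated arrays of the same size and spread, limma called 0% of transcript clusters shifted by 0.5 on the log2 scale and 0.5% of those shifted by 1, against 89.5% at a shift of 2. The 200 shifted transcript clusters were drawn at random from all 75212, so that these shares are averages and not those of the 9 genes. The noise was normal and independent between transcript clusters, and the share called depends on how many are shifted. Under that setting, a difference of the size seen in the 9 genes would seldom pass the adjustment for an average transcript cluster. Other numbers of shifted transcript clusters were not tested.

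**Figure D1:**
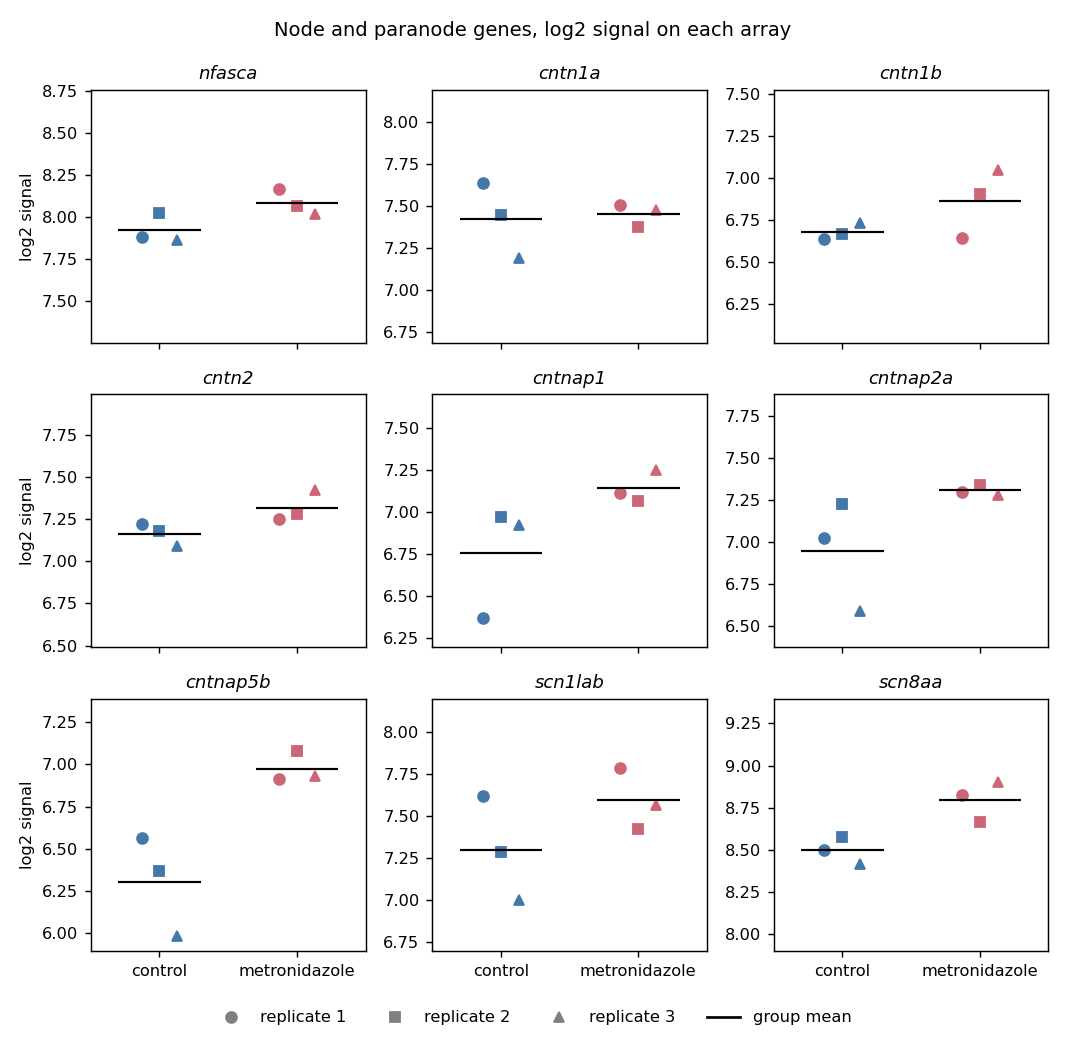
Log2 signal (vertical axis) of the 9 genes on each of the 3 control arrays (blue) and 3 metronidazole arrays (red), with the replicate number as the marker and the group mean as a line; each panel spans the same height on the log2 scale. The metronidazole arrays lie above all control arrays for cntn2, cntnap1, cntnap2a, cntnap5b and scn8aa, and control 3 is the lowest array for 7 of the 9 genes.

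The Caspr family genes had the 3 largest differences among the 9. Of these, cntnap5b was listed by family, and the roles described above are those of Caspr and Caspr2. The gene cntnap5b, a member of the Caspr family of neurexin-like surface proteins, had a log2 signal of 6.56, 6.37 and 5.98 on control arrays 1, 2 and 3 and of 6.91, 7.08 and 6.93 on metronidazole arrays 1, 2 and 3. The lowest metronidazole array lay 0.35 above the highest control array, the widest gap among the 5 genes whose groups did not overlap. The means were 6.30 ± 0.30 and 6.98 ± 0.09 (SD, n = 3), a log2 difference of 0.67 (95% interval 0.24 to 1.10), or 1.59-fold. The unadjusted limma p was 0.0078, in a gene known beforehand to differ in these data, and the difference stayed between 0.51 and 0.80 with any single array left out. It was the only one of the 9 genes whose 95% interval lay wholly above 0, and the only one whose interval reached a doubling.

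The gene cntnap1 encodes Caspr, the axonal partner of contactin 1 in the paranodal junction. Its log2 signal was 6.37, 6.97 and 6.92 on the control arrays and 7.11, 7.07 and 7.25 on the metronidazole arrays. Control 1 was far below the other controls, and the groups were otherwise close, with the lowest metronidazole array 0.10 above the highest control array. The log2 difference was 0.39 (standard error 0.19, 95% interval -0.07 to 0.84), and without control 1 it was 0.20. The gene cntnap2a encodes a Caspr2, which in mammals gathers potassium channels at the juxtaparanode. It was at 7.03, 7.22 and 6.59 on the control arrays and at 7.30, 7.34 and 7.28 on the metronidazole arrays. The 3 metronidazole arrays lay within 0.06 of each other, whereas the control arrays spanned 0.64 because control 3 was low. The log2 difference was 0.36 (standard error 0.18, 95% interval -0.08 to 0.80), and without control 3 it was 0.18.

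The contactins, immunoglobulin-type proteins fixed to the membrane by a lipid anchor, had differences of 0.03 to 0.19. The gene cntn2 encodes contactin 2, also called TAG-1, the partner of Caspr2 at the juxtaparanode. Its log2 signal was 7.22, 7.18 and 7.09 on the control arrays and 7.25, 7.28 and 7.42 on the metronidazole arrays. The groups did not overlap but were only 0.03 apart, and the log2 difference was 0.15 (95% interval -0.14 to 0.45). The genes cntn1a and cntn1b are duplicates of the contactin 1 gene. The signal of cntn1b was 6.64, 6.66 and 6.74 on the control arrays and 6.64, 6.90 and 7.05 on the metronidazole arrays, so that metronidazole 1 lay at the level of the controls. Its log2 difference was 0.19 (95% interval -0.17 to 0.54), and it was 0.093 without metronidazole 3 and 0.30 without metronidazole 1. For cntn2 it was 0.10 without metronidazole 3.

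The gene cntn1a was at 7.64, 7.45 and 7.19 on the control arrays and at 7.50, 7.37 and 7.48 on the metronidazole arrays. The metronidazole arrays lay inside the range of the controls, and the log2 difference of 0.03 (95% interval -0.34 to 0.39) turned to -0.089 without control 3. The dimmer transcript cluster of cntn1a read 6.62, 6.43 and 6.56 on the control arrays and 6.73, 6.55 and 7.11 on the metronidazole arrays, a log2 difference of 0.26 (95% interval -0.16 to 0.68). The clusters of this gene thus gave different sizes with overlapping intervals.

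The gene nfasca encodes a neurofascin, an adhesion protein of the L1 family whose mammalian forms sit on the axon at the node and on the glial loops at the paranode. Its log2 signal was 7.88, 8.02 and 7.86 on the control arrays and 8.17, 8.07 and 8.02 on the metronidazole arrays. Control 2 lay just above metronidazole 3, and the log2 difference was 0.16 (95% interval -0.13 to 0.46). A single transcript cluster read nfasca, so that the axonal and glial forms cannot be told apart.

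The sodium channel genes had nearly equal differences. The gene scn8aa encodes a channel of the Nav1.6 type, the main sodium channel of mature nodes in mammals. Its log2 signal was 8.50, 8.58 and 8.42 on the control arrays and 8.82, 8.66 and 8.90 on the metronidazole arrays, without overlap. The log2 difference was 0.30 (standard error 0.13, 95% interval -0.01 to 0.61), with an unadjusted limma p of 0.057. The gene scn1lab encodes a channel of the Nav1.1 type, and its loss in zebrafish gives seizures. It was at 7.62, 7.28 and 7.00 on the control arrays and at 7.79, 7.42 and 7.57 on the metronidazole arrays. Control 1 lay above metronidazole 2 and 3, and the log2 difference was 0.29 (standard error 0.20, 95% interval -0.18 to 0.76). Without control 3 it was 0.14, without metronidazole 1 it was 0.20, and without control 1 it was 0.45.

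By an exact permutation test on each gene (two-sided, all ways of splitting the arrays), p was 0.1 for each of the 5 genes whose groups did not overlap, the smallest that 3 arrays against 3 allow. It was 0.2 for nfasca, 0.3 for cntn1b and scn1lab, and 0.8 for cntn1a.

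**Figure D2:**
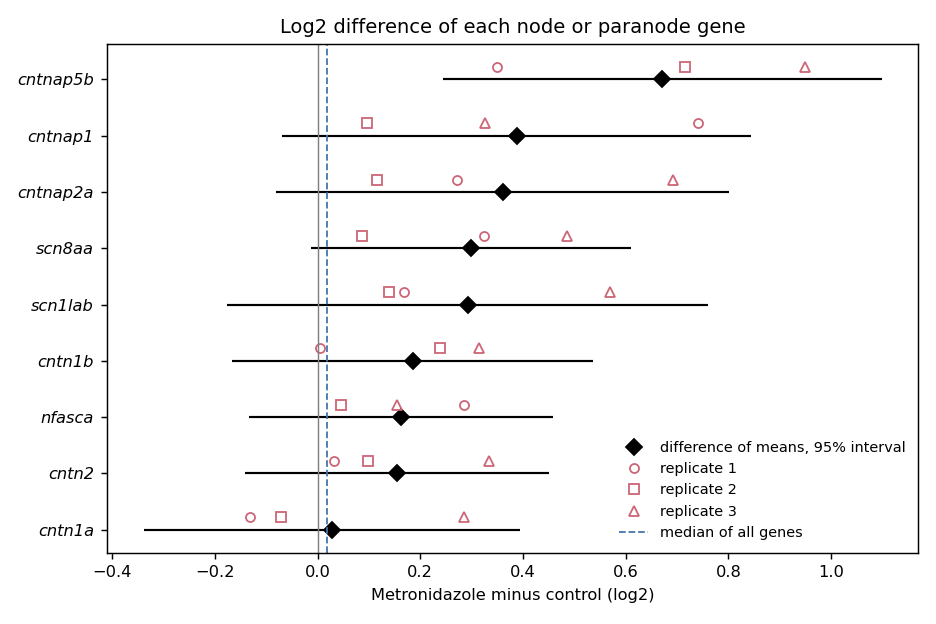
Metronidazole minus control on the log2 scale (horizontal axis) for each of the 9 genes, with the difference of the means and its 95% interval from limma (black), the difference between arrays of the same replicate number (open markers) and the median of all genes (dashed line). Only the interval of cntnap5b, from 0.24 to 1.10, lies wholly above 0.

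The study drew its larvae from 3 batches, and arrays of the same replicate number were taken to share one. Within replicate 1, 8 of the 9 genes were higher in the metronidazole array, as in replicate 2, and within replicate 3 all 9 were higher, against 46%, 53.9% and 53.2% of all genes. The median difference of the 9 genes was 0.27, 0.10 and 0.33 in the 3 replicates. Only cntn1a went the other way, by -0.13 in replicate 1 and -0.07 in replicate 2. The other 8 genes were higher within each replicate, which 15.8% of all genes were. In replicate 1, however, cntn1b was higher by only 0.004 and cntn2 by 0.03. For cntnap5b the differences were 0.35, 0.72 and 0.95.

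The control arrays set much of the spread. Control 3 was the lowest of the 6 arrays for 7 of the 9 genes, and control 1 for the remaining 2, cntnap1 and cntn1b. The metronidazole arrays spanned a narrower range than the control arrays for 6 of the 9 genes. The mean log2 signal over the 9 genes was 7.27, 7.30 and 7.09 on the control arrays and 7.50, 7.47 and 7.54 on the metronidazole arrays, so that the groups did not overlap in this mean. The same held for 2 of the 7 other lists described below. List means were 6.45 to 6.83 in control and 6.85 to 6.98 in metronidazole for the other contactin and Caspr genes. For the potassium channel genes they were 6.56 to 6.79 and 6.81 to 6.92. Those of the remaining lists overlapped. Without control 3 the median difference of the 9 genes was 0.18 in place of 0.29, and 8 of the 9 were above 0.

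Whether related genes differed from each other in their response was tested on the difference of their signals within each array, for 5 pairs. The lowest p after adjustment over the 5 pairs was 0.627 (limma), so that no pair was told apart. The difference of cntnap5b exceeded that of cntnap1 by 0.28 (95% interval -0.40 to 0.97) and that of cntnap2a by 0.31 (95% interval -0.25 to 0.87). Since cntnap5b was already known from these data to be among the larger differences upwards, the sign of both is no separate result. For the contactin 1 duplicates, cntn1a minus cntn1b was -0.16 (95% interval -0.67 to 0.35). For the sodium channels, scn1lab minus scn8aa was -0.01 (95% interval -0.46 to 0.45). For the neurofascin and contactin 1 genes, whose proteins bind across the paranodal junction, nfasca minus cntn1a was 0.13 (95% interval -0.29 to 0.56). With an array left out, cntnap5b minus cntnap1 ran from 0.04 (without control 3) to 0.60 (without control 1), and cntnap5b minus cntnap2a from 0.20 to 0.40. In the same way cntn1a minus cntn1b ran from -0.30 (without control 3) to -0.03 (without control 1), and nfasca minus cntn1a from 0.01 (without control 1) to 0.22 (without control 3).

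For 4 of the 9 genes, position in the genome ties them to each other or to a gene of a related family. In the RefSeq zebrafish annotation, nfasca and cntn2 are neighbours, with 0 protein-coding genes between them. The same holds for cntn1a and nrcamb and for cntn1b and nrcama, each a contactin 1 gene beside a gene of NrCAM, the L1 family protein of the node. The log2 difference of nrcama was 0.23 (standard error 0.12), with signals of 8.25, 8.21 and 8.23 on the control arrays and 8.42, 8.51 and 8.45 on the metronidazole arrays. That of nrcamb was 0.21 (standard error 0.27), and its groups overlapped.

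Other genes of the contactin and Caspr families were also at or above the control level. All 8 that were measured had a difference above 0, with a median of 0.21 and a range of 0.04 to 0.37, and 2 had groups that did not overlap. These were cntn5, with a log2 difference of 0.37 (standard error 0.14, unadjusted p = 0.034), and cntnap5l, with 0.34 (standard error 0.17). The gene cntn3b had a difference of 0.28 with overlapping groups. Of the 19 potassium channel genes and their anchors, 14 were above 0, with a median of 0.18, and 5 had groups that did not overlap, all higher. Those at an unadjusted p under 0.05 were kcnk2a, a background potassium channel of the TREK type, with 0.66 (standard error 0.17), and kcnq3 and kcnq2a, which in mammals make the Kv7 channels held at the node by ankyrin, with 0.41 and 0.43. None of these genes passed the adjusted p. The mean signals of kcnk2a and kcnq2a lay near the middle of all transcript clusters (percentiles 50.5 and 49.6). Among all genes, 53.5% were above 0, and for 5.14% the groups did not overlap, with metronidazole higher. At an unadjusted limma p under 0.05, 1.68% of all genes were higher.

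Medians were 0.09 and 0.14 for the other sodium channel subunits and the scaffold. Of 11 further sodium channel genes, 7 were above 0, with a highest value of 0.20, and for 0 of them were the groups apart. The symbol scn5Laa was left out of this list by hand. Those with the lowest p were scn5lab with 0.20 and the beta subunit genes scn3b and scn4bb with 0.15 and 0.13. Of 13 genes of ankyrins, spectrins and L1 family proteins, 11 were above 0. Groups that did not overlap were found for nrcama and ank2a, both higher, and for chl1a, an L1 family gene, with -0.54 (standard error 0.26). Over all genes, the groups did not overlap for 5.14% with metronidazole higher and for 5.73% with metronidazole lower. The ankyrin B gene ank2b had a difference of 0.22 (standard error 0.14).

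On the glial side, 9 of 16 genes of glial partners and node matrix were above 0 and 7 below, with a median of 0.06. The gene mag encodes an adhesion protein of the innermost myelin layer facing the axon. It was at 0.29 (standard error 0.13), the only one of the 16 whose groups did not overlap (5.14% of all genes, metronidazole higher). The matrix receptor gene ptprz1b was at 0.26, and nrg1, the axonal growth factor that instructs Schwann cells, at 0.24. The lowest of the 16 were hapln1a with -0.71 (standard error 0.76), vcanb with -0.25 (standard error 0.29) and hapln1b with -0.23 (standard error 0.37). Their groups overlapped. Leaving out an array can only keep or raise the counts of genes whose groups did not overlap. Several counts rose without control 1 and also without another array. Without control 1, the counts with metronidazole higher were 4 for the contactin and Caspr relatives, 8 for the potassium channels and 5 for the scaffold. They were 4 for the glial genes, 1 for the sodium channel subunits, and 5 and 4 for the neuron and myelin markers described next. Without control 1 the groups did not overlap in this direction for 20.2% of all genes.

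**Figure D3:**
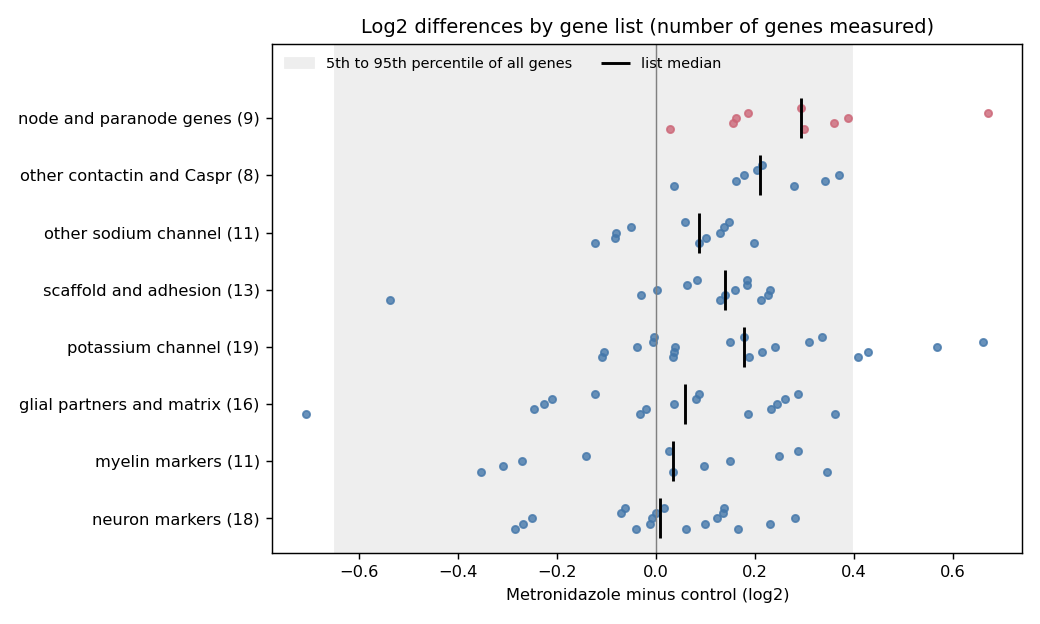
Metronidazole minus control on the log2 scale (horizontal axis) for each measured gene (points) of the 9 node and paranode genes (red) and of 7 other lists (blue), with the median of each list (black bar) and the 5th to 95th percentile of all genes (grey). The sodium channel symbol scn5Laa was left out. The median is 0.29 for the node and paranode genes and 0.21 for their contactin and Caspr relatives, against 0.03 for the myelin markers and 0.01 for the neuron markers.

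Markers of neurons, which carry most of these transcripts, and of myelin-forming cells had medians near 0. Of 18 neuron markers, 9 were above 0 and 9 below, with a median of 0.01, and their mean log2 signal lay between 8.14 and 8.32 on the control arrays and between 8.02 and 8.40 on the metronidazole arrays. The groups did not overlap for 3 of the 18, elavl4, syt1a and vamp2, all higher in metronidazole-treated larvae (5.14% of all genes). Without metronidazole 1, 16 of the 18 were above 0. The highest were elavl4, which encodes an RNA-binding protein of neurons, with 0.28 (standard error 0.14), nefma with 0.23, and syt1a with 0.17. The lowest were nefla with -0.28 (standard error 0.31), lower within each replicate, map1b with -0.27 (standard error 0.35) and stmn2b with -0.25 (standard error 0.27). Of 14 listed markers of myelin-forming cells, 11 were measured. Of these 11, 7 were above 0, with a median of 0.03 and overlapping list means (6.80 to 6.89 in control, 6.69 to 7.00 in metronidazole). The groups did not overlap for mag, which was higher (5.14% of all genes), and for erbb3b, which was lower (5.73% of all genes). The gene mbpa, a gene of myelin basic protein, had a log2 difference of -0.14 (standard error 0.16), and its duplicate mbpb 0.03 (standard error 0.13). The receptor gene erbb3b was at -0.27, and sox10, a transcription factor of these cells, at 0.25. The lowest of the 11 were cldnk with -0.35 (standard error 0.31), lower within each replicate, and olig2 with -0.31 (standard error 0.17). The groups overlapped for both. None of the markers passed the adjusted p, and a loss of myelin-forming cells was not detectable in them on these arrays. In RNA of whole larvae, fewer cells of a type and less RNA per cell cannot be told apart, and the part of neuron number in the differences of the 9 genes was not tested.

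Among the genes searched, those whose 6 signals ran most like the mean of the 9 genes were trhde.1, mdga1, chata, cdh7a and tenm2b. Their correlation with that mean over the 6 arrays was 0.99, 0.99, 0.99, 0.98 and 0.98. They were picked from genes above the median signal, so that high values arise by the search alone. These were 9622 genes before symbols with certain first letters, given below, were passed over. Their log2 differences were 0.52, 0.33, 0.31, 0.34 and 0.31. For chata, the choline acetyltransferase gene, the signal was 7.96, 7.96 and 7.76 on the control arrays and 8.16, 8.21 and 8.25 on the metronidazole arrays, with control 3 again the lowest.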

How the data were processed

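Total RNA of pooled whole larvae had been hybridised to GeneChip Zebrafish Gene 1.0 ST arrays. The table the authors deposited holds a log2 signal of 75212 transcript clusters on every array, already summarized and on nearly the same scale (array medians 5.10 to 5.14). Per the labels the tool MAS5 was used, with no role given, and the normalization and background correction are not given in the sources used here, so that folds of dim genes may be compressed. All 9 genes lay above the 72nd percentile of mean signal. The deposited values were used without further scaling.

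Symbols came from the platform's table (20806 transcript clusters with a single symbol, 855 with several), and the transcript cluster with the highest mean stood for a gene. Metronidazole and control were compared with lmFit and eBayes of limma 3.58.1 (R 4.3.3) in a two-sided test with 4 residual and 2.69 prior degrees of freedom. For pairs of genes, limma was fitted after subtracting the signal of the second gene within each array. The fit was checked on simulated shifts. Python 3.11.15, pandas 2.3.3, scipy 1.17.1 and matplotlib 3.10.9 served for tables, permutation tests and plots. The precision is limited by the number of arrays.

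After removal of group means, control and metronidazole arrays with the same replicate number correlated at 0.241, 0.148 and 0.127 across transcript clusters, and other pairs of arrays at -0.171 to 0.051. The methods speak of 3 batches of larvae, and equal numbers were read as the same batch.

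The 9 genes and all lists were chosen with earlier results of these data known, in which cntnap5b already stood among the larger differences upwards. Genes named from each other list were up to 3 with the lowest unadjusted p. Genes of like pattern were the 5 with the highest Pearson correlation after some symbols were passed over. These were symbols holding a colon or starting with zgc, si, wu, im, sb, LOC, zmp or sc. The rule was meant for clone and locus codes but also left out named genes such as the scn sodium channels. Others named (nrcamb, ank2a, vamp2, mbpa, mbpb, scn1laa, scn8ab, nfascb, cntnap2b, cldnk, olig2, nefla, map1b, stmn2b, hapln1a, vcanb and hapln1b) were added after their values were seen. Alternatives were quantile normalization, median centring, brighter transcript clusters only, the replicate number as a block, an intensity trend, array weights, the methods' t-test (equal variances), the ratio of mean linear signals, the dimmer transcript cluster, and each array left out.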

Additional observations from a re-analysis of the deposited data

How the results depend on the processing

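Of 135 values for the 9 genes over the 15 alternatives, 91 differed from the reported difference, since alternatives of the test alone leave it as it was. Of these 91, 90 kept the direction, and 0 passed the adjusted p of 0.05 where a test was run. The exception was cntn1a, at -0.089 without control replicate 3, and up to 0.13 with another array left out. No transcript cluster passed the adjusted p under any alternative with a test. With the replicate block, the median difference of the 9 genes was 0.29, the count at an unadjusted p under 0.05 was 1 (cntnap5b), and no call changed. That count was 2 with array weights and by the methods' t-test (2.25% of all genes), in both of which scn8aa was added, and lay between 1 and 2 with an array left out (cntnap2a added without control replicate 2, scn8aa without metronidazole replicate 2). The count of genes whose groups did not overlap was 6 after median centring, where nfasca was added. With an array left out it can only stay or rise, and it lay between 5 and 6. It was 6 without control replicate 1, where the groups did not overlap in this direction for 20.2% of all genes. Apart from this and the methods' t-test, no share over all genes is given for the alternatives. Their counts therefore cannot be set against such a share. The median difference lay between 0.18 and 0.34 with an array left out, the lowest without control replicate 3, and was 0.20 without control replicate 1. Added after the data were seen, the difference between scn1lab and scn8aa changed sign with an array left out, from -0.12 without control replicate 3 to 0.15 without control replicate 1. The number of arrays limits these values.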
